A study of Homo sapiens with 14 samples.

Results

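The genes described here are 46 genes of the lysosome and of autophagy. They were chosen by name and by their roles in these pathways, with earlier results of these data known. They were followed in RS4;11 cells, a human precursor B-cell leukemia line with a rearranged KMT2A gene, before and after dexamethasone, a synthetic glucocorticoid that activates the glucocorticoid receptor (GR). A probe set is a group of array probes for 1 transcript, and a gene was measured where at least 1 probe set was annotated with that gene alone. This held for 45 of the 46 genes, with 81 probe sets, out of 11963 genes measured in all. The exception was GLB1, the lysosomal beta-galactosidase, whose probe set is annotated with a further gene. The 45 genes are 7 lysosomal membrane proteins, 18 hydrolases and other proteins of the lysosomal lumen, 5 subunits of the proton pump, 13 autophagy factors and 2 transcription factors. Of the 14 arrays, 4 held untreated cells (labelled with no treatment), 5 held cells after 8 h and 5 held cells after 24 h of dexamethasone at 10 nM. All groups had first spent 48 h in medium with charcoal-dextran-treated serum, which deprives cells of hormone, and dexamethasone was added from a stock in ethanol. No untreated array was matched to the 8 h or the 24 h time point, so time in culture and dexamethasone cannot be told apart.

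The labels carry an ending that names a calendar day and, for 1 day, a letter. Arrays with the same ending are called a set here. There were 5 sets on 4 days, with sets 1 and 2 on day 1. Sets 1 to 4 each held 1 array of every group. Set 5 held an 8 h and a 24 h array and no untreated array. What the day marks (culture, RNA extraction or scan) is not given in the sources used here. Replicate numbers are those of the labels, so untreated replicate 4 shared set 4 with replicate 5 of both treated groups, and replicate 4 of both treated groups formed set 5. Nothing states that replicates were separate cultures, so p-values measure the spread between arrays. The labelled treatment was borne out by 2 glucocorticoid-induced genes. FKBP5, a cochaperone of GR, had a mean log2 expression of 5.09 ± 0.19 (SD, n = 4) untreated, 7.58 ± 0.57 (n = 5) at 8 h and 7.88 ± 0.28 (n = 5) at 24 h. TSC22D3, which encodes GILZ, had means of 8.74 ± 0.12, 11.04 ± 0.14 and 11.49 ± 0.09 in the same order. Of 10 precursor B-cell markers, 8 were measured, and 7 of them exceeded the median of the array in untreated cells and 6 at each treated time. None of 9 measured monocyte and macrophage markers exceeded it in any group.

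Lysosomes are acidic organelles in which hydrolases break down proteins, lipids and sugar chains. A vacuolar-type proton pump keeps the lumen acidic, and heavily glycosylated membrane proteins line the inner face of the membrane. In autophagy a double membrane forms around cytoplasm or a mitochondrion, closes with the help of ubiquitin-like ATG8 proteins and fuses with the lysosome. The transcription factors TFEB and TFE3 are known to bind an E-box in the promoters of many lysosomal genes and to be held in the cytoplasm by mTORC1 when nutrients are plentiful. In lymphoid cells glucocorticoids are known to slow growth and to cause death, and autophagy has been studied in that setting.

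After 8 h of dexamethasone, 12 of the 45 measured genes were higher than in untreated cells and 4 were lower, and 29 did not pass the test. The test was limma's moderated test on log2 values, at a Benjamini-Hochberg adjusted p below 0.05 over all genes. Over all 11963 genes, 8.69% were called higher and 11.0% lower in this comparison. The median log2 difference of the 45 genes was 0.10, beside -0.02 over all genes. In bulk RNA a difference in the mix of cells and a difference in RNA per cell cannot be told apart. Within day 1 the counts were 12 higher and 5 lower, beside 9.41% and 10.6% of all genes. Within days 2 to 4 they were 11 and 4, beside 9.78% and 12.4% of all genes. The genes called differed between these fits: only CTSB, ATP6V1A, ULK1, WIPI1 and ATG12 were called higher in both.

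After 24 h, 27 of the 45 genes were higher than in untreated cells and 4 were lower, and 14 did not pass. Over all genes, 19.5% were called higher and 20.9% lower. The share of the 45 genes called higher was thus 60%, and the share called lower was 8.89%. As the genes were chosen with earlier results known, these shares are a description and not a test. The median log2 difference of the 45 genes was 0.37, beside -0.02 over all genes. Within day 1 the counts were 27 higher and 3 lower, beside 18.2% and 19% of all genes. Within days 2 to 4 they were 28 and 4, beside 19.8% and 21.8% of all genes. The comparisons at 8 h and at 24 h used the same 4 untreated arrays, so their counts are given side by side and their overlap is not taken as a result.

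Between 8 h and 24 h, a comparison without the untreated arrays, 23 genes were higher at 24 h and 3 were lower, and 19 did not pass. Over all genes, 14.6% were called higher and 13.7% lower at 24 h than at 8 h. The 45 genes had a median log2 difference of 0.23, beside 0.00 over all genes. Within day 1 the counts were 23 and 3, beside 14.5% and 13.5% of all genes. Within days 2 to 4 they were 26 and 2, beside 14.6% and 15.1% of all genes.

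**Figure D1:**
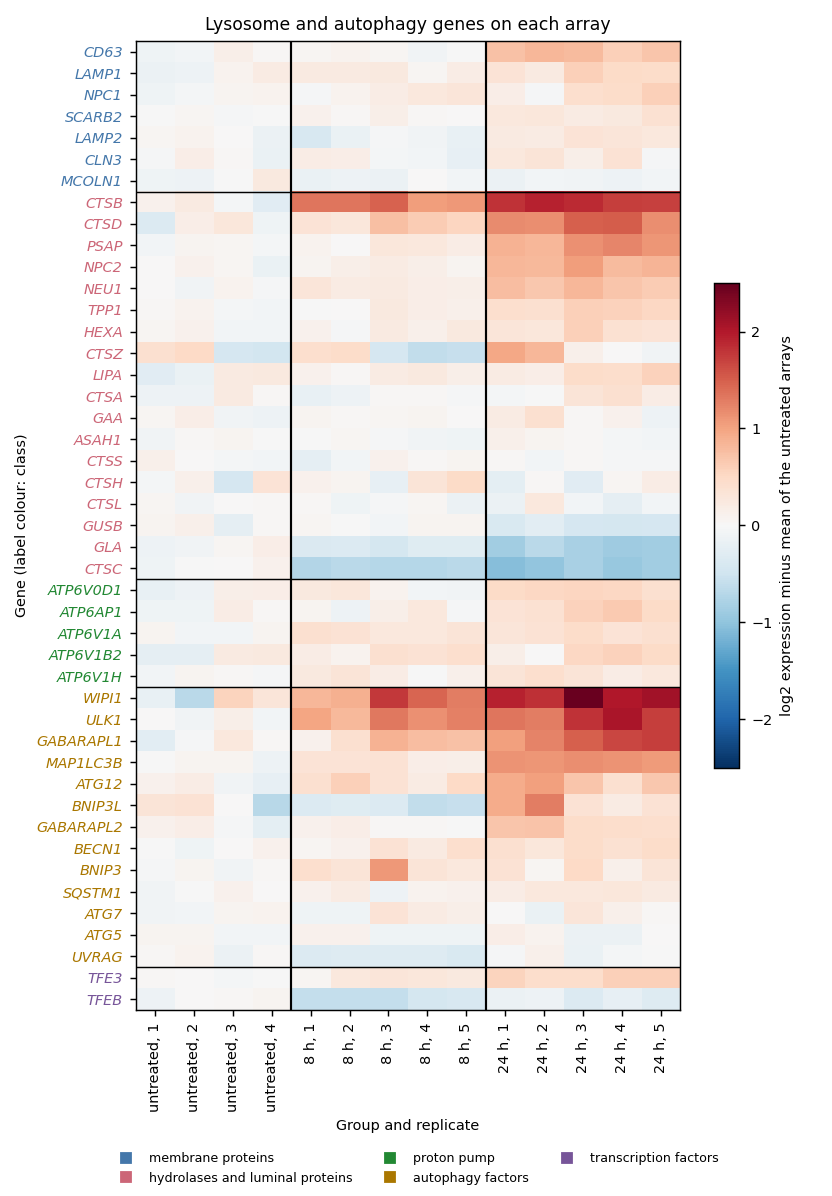
Log2 expression of the 45 measured genes (rows, grouped by class and ordered by the difference at 24 h) on each of the 14 arrays (columns, by group and replicate), minus the mean of the 4 untreated arrays. The strongest colours are those of CTSB, WIPI1 and ULK1, with means 1.81, 2.07 and 1.64 above untreated cells at 24 h, and blue marks CTSC, GLA and GUSB, with means lower by 0.94, 0.83 and 0.39.

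By class, none of the 7 membrane proteins was called at 8 h, and 5 were higher at 24 h, with a median log2 difference of 0.28. Of the 18 hydrolases and luminal proteins, 3 were higher and 2 lower at 8 h, and 8 were higher and 3 lower at 24 h, with a median of 0.27. Of the 5 pump subunits, 1 was higher at 8 h and 4 at 24 h, with a median of 0.37. Of the 13 autophagy factors, 7 were higher and 1 lower at 8 h, and 9 were higher and none lower at 24 h, with a median of 0.54. All 4 genes that were lower at 24 h were hydrolases or the transcription factor TFEB. For comparison, 8.69% of all genes were called higher and 11.0% lower at 8 h, and 19.5% and 20.9% at 24 h. The hydrolases and luminal proteins had 44.4% higher and 16.7% lower at 24 h. The classes were not tested against each other, since genes are not replicates.

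**Figure D2:**
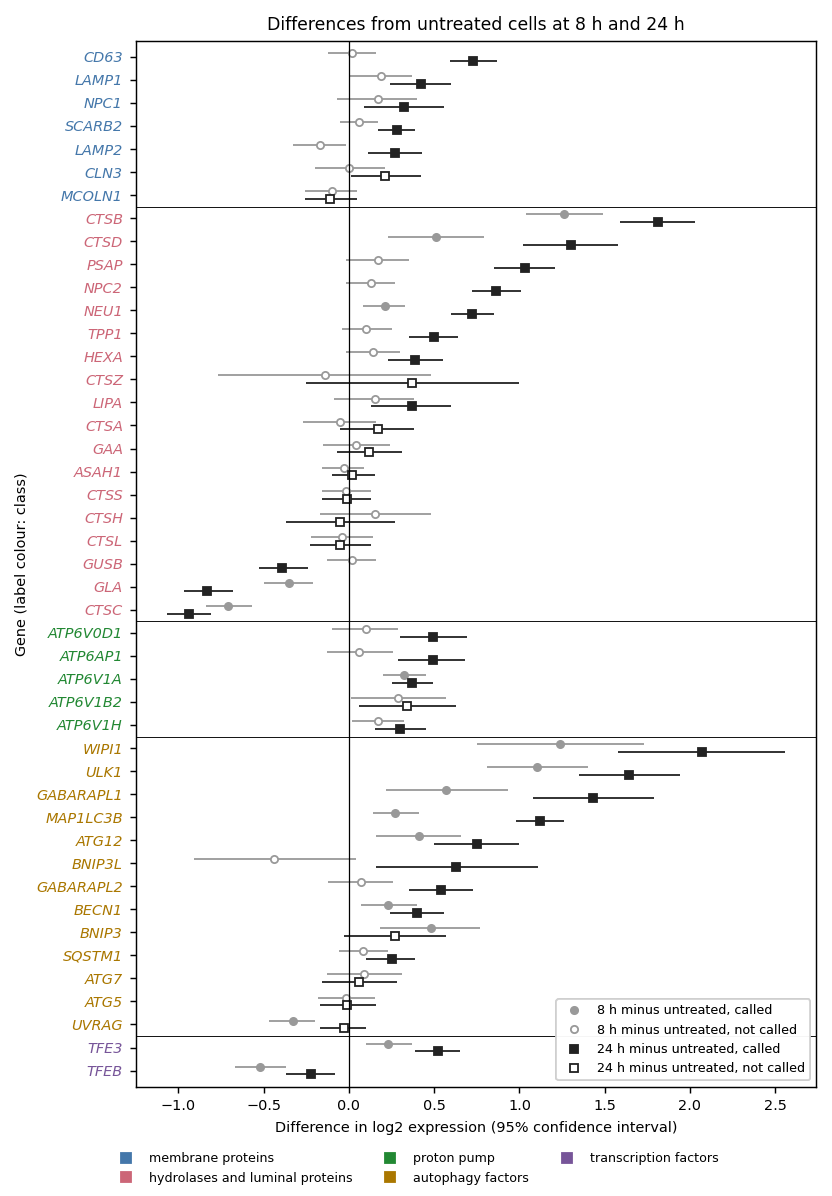
Differences in log2 expression from untreated cells at 8 h (grey circles) and 24 h (black squares) with 95% confidence intervals from the limma model, for the 45 genes grouped by class. Filled symbols passed an adjusted p of 0.05. All 7 membrane proteins have open grey circles, and 5 of them, all but CLN3 and MCOLN1, have filled black squares to the right of 0, while CTSB, WIPI1 and ULK1 already stand above 1 at 8 h.

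The transcription factors went opposite ways at 8 h. TFEB read 7.76, 7.91, 7.93 and 7.97 on untreated arrays 1 to 4, then 7.30, 7.30, 7.30, 7.45 and 7.49 on 8 h arrays 1 to 5, and 7.75, 7.77, 7.56, 7.69 and 7.57 on 24 h arrays 1 to 5. Every 8 h array lay below every untreated and every 24 h array. The log2 difference was -0.52 ± 0.07 (SE) at 8 h (limma adjusted p = 4.26e-05) and -0.22 ± 0.07 at 24 h (adjusted p = 0.0155), and TFEB rose by 0.30 ± 0.07 from 8 h to 24 h (adjusted p = 0.00242). The call at 24 h was lost without untreated replicate 4 (difference -0.20, adjusted p = 0.0513) and within day 1 (-0.08, adjusted p = 0.495). TFEB passed at 24 h with the set as a replicate block (-0.24, adjusted p = 0.0141). TFE3, its close relative, read 7.05, 7.03, 6.97 and 7.0 untreated, 7.07, 7.28, 7.32, 7.30 and 7.26 at 8 h and 7.56, 7.46, 7.45, 7.60 and 7.60 at 24 h. These groups did not overlap, and each step was upward. TFE3 rose by 0.23 ± 0.06 at 8 h (adjusted p = 0.0121) and by 0.52 ± 0.06 at 24 h (adjusted p = 3.11e-06). Within day 1 the 8 h difference of TFE3 was 0.14 (adjusted p = 0.339). Transcript levels do not show where in the cell these factors were. The related factors MITF and TFEC had differences of -0.18 and 0.13 at 24 h, neither of which passed (adjusted p = 0.304 and 0.335).

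The promoters of the genes were searched for the letters that TFEB and TFE3 are known to bind. RefSeq windows of GRCh38.p14, from 250 bases before to 50 bases after a gene's start, were found for 35 of the 46 genes, 51 windows in all. No window was found for LAMP2, CTSB, CTSS, HEXA, ASAH1, PSAP, ATP6V1A, ATP6V1B2, ATP6V1H, UVRAG and BNIP3L, so their promoters were not searched. The E-box was searched as CACGTG, which reads the same on both strands, and the extended form as TCACGTG on both strands, which always holds an E-box and can match the same E-box from both sides. An E-box stood in the windows of 10 of the 35 genes (28.6%), beside 12% of 9563 measured genes with a window, and in 11 of the 51 windows (21.6%), beside 8.76% of the windows of measured genes and 7.26% of all 35116 windows. The extended form stood in 8 of the 35 genes (22.9%), beside 6.65% of measured genes with a window, and in 17.6% of their windows, beside 4.88% of the windows of measured genes and 3.71% of all windows. As the genes were chosen by their roles in these pathways, such shares are a description and not a test. These 8 promoters are printed because they carry the extended form, with every E-box that lies wholly before the start in capitals and its flanks in lower case. Each sequence reads 5′ to 3′ on the gene's strand and ends before the gene's start.
ATP6V0D1 (chr16:67481196-67481231, minus strand): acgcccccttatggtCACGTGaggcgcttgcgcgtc
CLN3 (chr16:28492084-28492119, minus strand): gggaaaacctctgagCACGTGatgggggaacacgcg
CTSA (chr20:45891278-45891330, plus strand): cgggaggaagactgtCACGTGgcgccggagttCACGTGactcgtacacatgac
CTSD (chr11:1763954-1763989, minus strand): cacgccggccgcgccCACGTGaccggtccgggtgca
GAA (chr17:80101490-80101570, plus strand): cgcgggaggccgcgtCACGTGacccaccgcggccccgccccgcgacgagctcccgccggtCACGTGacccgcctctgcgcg
LAMP1 (chr13:113297032-113297231, plus strand): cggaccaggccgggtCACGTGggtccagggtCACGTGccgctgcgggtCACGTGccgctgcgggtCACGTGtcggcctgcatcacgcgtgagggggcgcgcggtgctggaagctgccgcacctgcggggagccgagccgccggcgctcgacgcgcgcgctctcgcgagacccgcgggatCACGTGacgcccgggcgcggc
MCOLN1 (chr19:7522568-7522623, plus strand): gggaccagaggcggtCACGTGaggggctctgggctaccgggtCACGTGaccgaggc
NEU1 (chr6:31862927-31862962, minus strand): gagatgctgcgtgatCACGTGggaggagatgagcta

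LAMP1 held 5 E-boxes before its start and a sixth that spans the start. CLN3 held 1 before its start and, in the same window, a further one that spans the start. CTSA, GAA and MCOLN1 each held 2. The nearest E-box lying wholly before the start began between 14 bases (MCOLN1) and 126 bases (NEU1) before it. CD63 and BNIP3 held the hexamer without the extended form. Among the 8 genes with the extended form, 4 were higher at 24 h (CTSD, NEU1, ATP6V0D1 and LAMP1) and 4 were not called (CLN3, CTSA, GAA and MCOLN1), with a median log2 difference of 0.32. Among 26 measured genes whose windows lacked it, 16 were higher and 4 lower at 24 h, with a median of 0.37. Genes without a window, CTSB and PSAP among them, are in neither count, so the split does not cover all measured genes. A pair of glucocorticoid receptor half-sites, searched as ACANNNTGT on both strands, stood in 1 member window, that of ATG5, beside 3.88% of the windows of measured genes and 5.37% of all windows. These matches describe the letters of the windows and say nothing about binding.

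**Figure D3:**
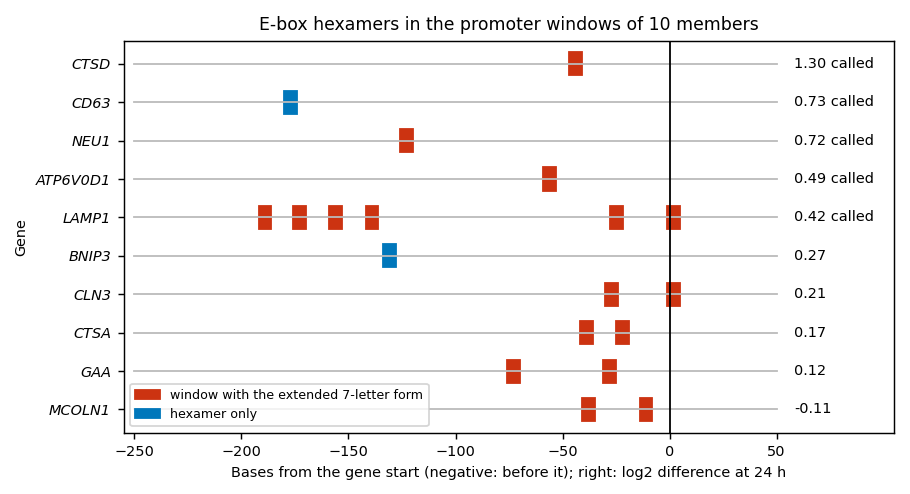
Positions of E-box hexamers (blocks, red where the window holds the extended form and blue where it does not) in 1 promoter window of each of the 10 genes that have one, as bases from the gene's start, with the log2 difference at 24 h printed at the right. LAMP1 has 6 blocks; MCOLN1, GAA, CTSA and CLN3 have 2 each and no call, with differences between -0.11 and 0.21.

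Of the 7 membrane proteins none was called at 8 h, where 8.69% of all genes were called higher and 11.0% lower. Of 16 membrane proteins of the wider list described further on, 3 were higher and 1 was lower at that time. CD63, a tetraspanin of late endosomes and lysosomes, read 10.05, 10.10, 10.32 and 10.19 on the untreated arrays, 10.22, 10.25, 10.22, 10.08 and 10.16 at 8 h and 10.90, 11.00, 10.95, 10.77 and 10.86 at 24 h. Its untreated and 8 h arrays overlapped, and all 24 h arrays lay above both. Its log2 difference was 0.02 ± 0.07 at 8 h (adjusted p = 0.892) and 0.73 ± 0.07 at 24 h (adjusted p = 1.67e-07), and from 8 h to 24 h it rose by 0.71 ± 0.06 (adjusted p = 4.19e-07). LAMP1, a main glycoprotein of the lysosomal membrane whose promoter is printed above, read 8.62, 8.64, 8.86 and 8.97 untreated, 8.99, 9.0, 9.01, 8.83 and 8.96 at 8 h and 9.11, 9.0, 9.37, 9.25 and 9.23 at 24 h. Every 24 h array lay above every untreated array, and the 8 h arrays overlapped with both groups. LAMP1 rose by 0.42 ± 0.09 at 24 h (adjusted p = 0.000805). Its difference at 8 h was 0.19 ± 0.09 over all arrays (adjusted p = 0.159), 0.37 within day 1 (adjusted p = 0.0102) and 0.02 within days 2 to 4. The step of LAMP1 from 8 h to 24 h, 0.23 (adjusted p = 0.0427), lost its call without any 1 of 8 arrays, namely 8 h replicates 1 to 5 and 24 h replicates 3 to 5 (0.19 to 0.25, adjusted p 0.0519 to 0.119). That step passed with the set as a replicate block (0.23, adjusted p = 0.0177).

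LAMP2, which also lines the lysosomal membrane and takes part in chaperone-mediated autophagy, was at -0.17 ± 0.07 at 8 h (adjusted p = 0.124) and rose by 0.27 ± 0.07 at 24 h (adjusted p = 0.00714). Its difference at 8 h was -0.34 within day 1 (adjusted p = 0.032) and -0.04 within days 2 to 4 (adjusted p = 0.8). Its rise from 8 h to 24 h was 0.44 ± 0.07 (adjusted p = 0.000139). The LAMP2 probe set with the highest mean gave 0.15 at 24 h (adjusted p = 0.203) and 0.18 from 8 h to 24 h (adjusted p = 0.117), so both calls were lost with it alone. SCARB2, the receptor that carries glucocerebrosidase to lysosomes, rose by 0.28 ± 0.05 at 24 h (adjusted p = 0.000421) after 0.06 at 8 h, where its 3 probe sets gave -0.02, 0.07 and 0.13. The probe sets that gave 0.07 and 0.13 did not exceed the array median on any array. NPC1, the membrane protein that exports cholesterol from lysosomes, rose by 0.32 ± 0.11 at 24 h (adjusted p = 0.0276). That call was lost without untreated replicate 1 or 2 or 24 h replicate 3, 4 or 5 (0.26 to 0.31, adjusted p 0.0616 to 0.0821), and within day 1 the difference was 0.15 (adjusted p = 0.27). NPC1 passed at 24 h with the set as a replicate block (0.29, adjusted p = 0.00466). The calcium channel MCOLN1 and CLN3, the protein mutated in juvenile Batten disease, had differences of -0.11 ± 0.07 (adjusted p = 0.297) and 0.21 ± 0.10 (adjusted p = 0.0945) at 24 h. The probe sets of CLN3 gave -0.03 and 0.04 at 8 h and 0.19 and 0.24 at 24 h. With the set as a replicate block CLN3 passed at 24 h (0.21, adjusted p = 0.0166) and from 8 h to 24 h (0.21, adjusted p = 0.0116).

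Among the hydrolases, CTSB had the largest difference at both times. This gene encodes cathepsin B, a cysteine protease. Its arrays read 6.64, 6.75, 6.48 and 6.24 untreated, 7.87, 7.87, 8.01, 7.57 and 7.62 at 8 h and 8.34, 8.46, 8.39, 8.25 and 8.24 at 24 h. No array of one group reached the range of another. CTSB rose by 1.26 ± 0.11 at 8 h (adjusted p = 2.96e-07) and by 1.81 ± 0.11 at 24 h (adjusted p = 9.03e-10), a 3.51-fold difference. Within sets 1 to 4 the difference at 24 h lay between 1.70 and 2.0. CTSD, the aspartic protease cathepsin D, read 5.03, 5.55, 5.66 and 5.27 untreated, 5.71, 5.66, 6.13, 6.01 and 5.92 at 8 h and 6.56, 6.54, 6.87, 6.89 and 6.53 at 24 h. Its 8 h arrays began at the untreated maximum, and its 24 h arrays lay above both groups. CTSD rose by 0.51 ± 0.13 at 8 h (adjusted p = 0.0118) and by 1.30 ± 0.13 at 24 h (adjusted p = 5.99e-07). Within day 1 its 8 h difference was 0.39 (adjusted p = 0.125).

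Cathepsin C went the other way. CTSC, which activates serine proteases of granules, read 10.30, 10.40, 10.43 and 10.52 untreated, 9.68, 9.73, 9.69, 9.69 and 9.74 at 8 h and 9.34, 9.43, 9.60, 9.47 and 9.54 at 24 h. Its groups did not overlap, and each step was downward. The log2 difference was -0.71 ± 0.06 at 8 h (adjusted p = 5.34e-07) and -0.94 ± 0.06 at 24 h (adjusted p = 3.75e-09). The remaining cathepsins did not pass against untreated cells at either time without a block. At 24 h, CTSH, CTSL and CTSS had differences of -0.05, -0.05 and -0.01, and the carboxypeptidase CTSA was at 0.17 ± 0.10 (adjusted p = 0.222). With the set as a replicate block, CTSA rose by 0.22 from 8 h to 24 h (adjusted p = 0.00354, upward in 5 of 5 sets), and CTSH was at -0.20 (adjusted p = 0.0186, downward in 5 of 5 sets). CTSL stayed below the array median on all 14 arrays, so a change in it may be missed.

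Cathepsin Z depended on the day. CTSZ read 7.50 and 7.60 on the untreated arrays of day 1 and 6.69 and 6.64 on those of later days. At 24 h it read 8.07 and 7.94 on day 1 and 7.24, 7.12 and 7.01 later. The gap between days exceeded the gap between groups. Its difference at 24 h was 0.37 ± 0.29 without a block (adjusted p = 0.369) and 0.48 with the set as a replicate block (adjusted p = 1.34e-05). From 8 h to 24 h it was 0.52, with an adjusted p of 0.204 without and 7.44e-06 with the block. The 24 h difference of CTSZ from untreated cells was 0.46 both within day 1 (adjusted p = 0.00277) and within days 2 to 4 (adjusted p = 0.0015). Of its 2 probe sets, the one with the higher mean carried this, with 0.79 ± 0.55 at 24 h, and the other was at -0.05 ± 0.09. TPP1, a tripeptidyl peptidase, rose by 0.50 ± 0.07 at 24 h (adjusted p = 1.57e-05). At 8 h TPP1 was at 0.10 over all arrays (adjusted p = 0.356) and -0.07 within day 1 (adjusted p = 0.542). Within days 2 to 4 it passed at 8 h (0.24, adjusted p = 0.0238). Its 4 probe sets gave -0.17, -0.06, 0.27 and 0.38 at 8 h and 0.28, 0.46, 0.51 and 0.73 at 24 h.

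Of the glycosidases and lipid hydrolases, NEU1, the lysosomal sialidase, rose by 0.21 ± 0.06 at 8 h (adjusted p = 0.0216) and by 0.72 ± 0.06 at 24 h (adjusted p = 5.23e-08). The 8 h call of NEU1 was lost without untreated replicate 2 (0.18, adjusted p = 0.0767) or 4 (0.20, adjusted p = 0.0535), and within days 2 to 4 (0.14, adjusted p = 0.236). NEU1 passed at 8 h with the set as a replicate block (0.22, adjusted p = 0.00457). HEXA, the alpha subunit of beta-hexosaminidase, rose by 0.39 ± 0.08 at 24 h (adjusted p = 0.000553). LIPA, the lysosomal acid lipase, rose by 0.37 ± 0.11 at 24 h (adjusted p = 0.014), a call lost without untreated replicate 1 (0.27, adjusted p = 0.0624) or 2 (0.31, adjusted p = 0.054). LIPA passed at 24 h with the replicate block (0.35, adjusted p = 0.00126). Its step of 0.22 from 8 h to 24 h also passed with the block (adjusted p = 0.0171). GLA, the alpha-galactosidase deficient in Fabry disease, fell. It read 9.37, 9.41, 9.55 and 9.66 untreated, 9.13, 9.16, 9.06, 9.19 and 9.19 at 8 h and 8.63, 8.82, 8.69, 8.61 and 8.62 at 24 h, in groups that did not overlap. The difference was -0.35 ± 0.07 at 8 h (adjusted p = 0.00141) and -0.83 ± 0.07 at 24 h (adjusted p = 5.25e-08). GUSB, the beta-glucuronidase, was at 0.02 at 8 h and -0.39 ± 0.07 at 24 h (adjusted p = 0.000255).

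The glycogen-degrading GAA had a difference of 0.12 ± 0.09 at 24 h (adjusted p = 0.323). ASAH1, acid ceramidase, was at 0.02 ± 0.06 as the mean of 4 probe sets, which did not move together. At 24 h 3 of them gave 0.07, 0.16 and 0.21, and the remaining one gave -0.35 ± 0.09. Of these, 0.21 and -0.35 passed in the fit by probe set (adjusted p = 0.0139 and 0.00503). No other member had probe sets called in both directions at 24 h. The cathepsin CTSS likewise had 1 probe set on each side of 0, at 0.03 and -0.06.

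Both luminal lipid-binding proteins rose mainly after 8 h. PSAP, the precursor of the saposins that help lipid hydrolases, read 9.46, 9.59, 9.58 and 9.47 untreated, 9.62, 9.53, 9.81, 9.78 and 9.71 at 8 h and 10.39, 10.36, 10.66, 10.74 and 10.62 at 24 h. Arrays of the 24 h group stood clear of all others. Its difference was 0.17 ± 0.09 at 8 h (adjusted p = 0.217) and 1.03 ± 0.09 at 24 h (adjusted p = 5.28e-08). The 8 h difference of PSAP was 0.05 within day 1 (adjusted p = 0.728) and passed within days 2 to 4 (0.24, adjusted p = 0.0309). NPC2, which hands cholesterol to NPC1, was at 0.13 ± 0.07 at 8 h (adjusted p = 0.238) and rose by 0.86 ± 0.07 at 24 h (adjusted p = 3.26e-08). Within sets 1 to 4 the 24 h difference of NPC2 lay between 0.70 and 1.01.

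The 5 measured pump subunits had log2 differences between 0.30 and 0.49 at 24 h. ATP6V1A, a catalytic subunit and the only one called at 8 h, read 8.26, 8.14, 8.13 and 8.27 untreated, 8.60, 8.57, 8.47, 8.47 and 8.52 at 8 h and 8.50, 8.57, 8.66, 8.54 and 8.61 at 24 h. Treated arrays at both times lay above the untreated ones and overlapped with each other. ATP6V1A rose by 0.32 ± 0.06 at 8 h (adjusted p = 0.000564) and by 0.37 ± 0.06 at 24 h (adjusted p = 4.97e-05). ATP6V0D1, a subunit of the membrane sector, read 9.28, 9.34, 9.60 and 9.62 untreated, 9.71, 9.74, 9.55, 9.40 and 9.38 at 8 h and 9.94, 9.97, 10.00, 9.98 and 9.87 at 24 h. Only the 24 h arrays were separate from the untreated ones. Its difference at 24 h was 0.49 ± 0.09 (adjusted p = 0.00029). At 8 h it was 0.10 over all arrays (adjusted p = 0.561), 0.42 within day 1 (adjusted p = 0.00471) and -0.17 within days 2 to 4.

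ATP6AP1, an accessory subunit of the pump, read 8.99, 9.0, 9.29 and 9.14 untreated, 9.17, 8.98, 9.26, 9.36 and 9.08 at 8 h and 9.44, 9.48, 9.69, 9.76 and 9.58 at 24 h. Its 24 h arrays alone lay above all untreated arrays. The rise was 0.49 ± 0.09 at 24 h (adjusted p = 0.000343). ATP6V1H, a regulatory subunit, rose by 0.30 ± 0.07 at 24 h (adjusted p = 0.00208). ATP6V1B2, a nucleotide-binding subunit, had a difference of 0.34 ± 0.13 at 24 h, just outside the threshold (adjusted p = 0.0502). With the set as a replicate block ATP6V1B2 passed at 8 h (0.25, adjusted p = 0.00526) and at 24 h (0.31, adjusted p = 0.000625), and ATP6V1H passed at 8 h (0.21, adjusted p = 0.00548) and from 8 h to 24 h (0.13, adjusted p = 0.0342).

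**Figure D4:**
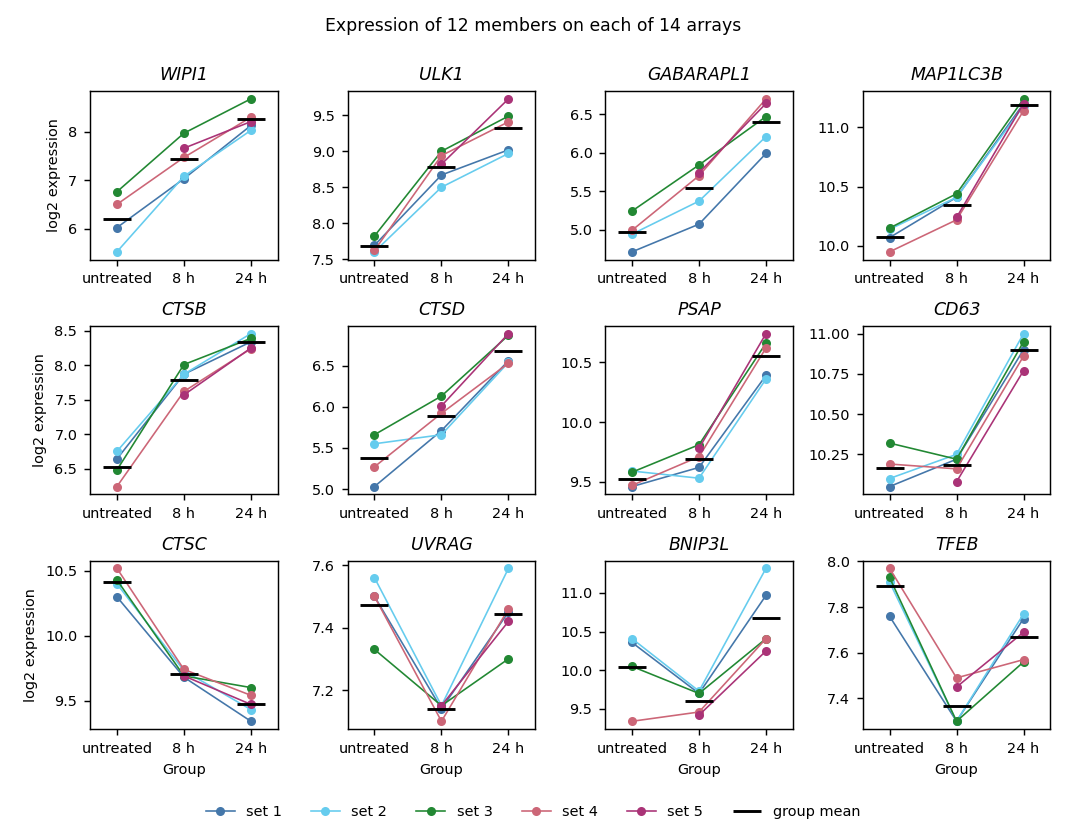
Log2 expression of 12 members on each of the 14 arrays by group, with a line for each set and a black bar for the group mean. WIPI1, ULK1, GABARAPL1, CTSB and CTSD climb at both steps, MAP1LC3B, PSAP and CD63 climb mainly between 8 h and 24 h, CTSC falls, and UVRAG, BNIP3L and TFEB have their lowest group mean at 8 h.

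Autophagy factors included the largest rise of all 45 genes. WIPI1, which binds phosphoinositides on the forming autophagosome, read 6.02, 5.52, 6.76 and 6.50 untreated, 7.03, 7.08, 7.97, 7.66 and 7.47 at 8 h and 8.13, 8.03, 8.68, 8.21 and 8.30 at 24 h. Its groups did not overlap, although the untreated arrays alone spanned more than 1 log2 unit. WIPI1 rose by 1.24 ± 0.23 at 8 h (adjusted p = 0.000991) and by 2.07 ± 0.23 at 24 h (adjusted p = 1.67e-06), a 4.2-fold difference. ULK1, the kinase that starts autophagosome formation, read 7.69, 7.60, 7.82 and 7.62 untreated, 8.67, 8.50, 9.0, 8.82 and 8.94 at 8 h and 9.02, 8.97, 9.49, 9.73 and 9.41 at 24 h. Both treated groups lay above the untreated arrays and overlapped with each other. ULK1 rose by 1.10 ± 0.14 at 8 h (adjusted p = 2.59e-05) and by 1.64 ± 0.14 at 24 h (adjusted p = 7.01e-08), a 3.12-fold difference.

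BECN1 and UVRAG belong to the lipid kinase complex that acts after ULK1. BECN1 rose by 0.40 ± 0.08 at 24 h (adjusted p = 0.000473). Its 8 h difference of 0.23 ± 0.08 passed narrowly (adjusted p = 0.0432) and was lost without any 1 of 10 arrays, namely untreated replicates 1 to 3, 8 h replicates 3 to 5 and 24 h replicates 1, 3, 4 and 5 (0.19 to 0.24, adjusted p 0.051 to 0.135). BECN1 passed at 8 h with the set as a replicate block (0.24, adjusted p = 0.00796), upward in 4 of 4 sets. Its step of 0.17 from 8 h to 24 h also passed with the block (adjusted p = 0.0256). UVRAG dipped and returned. It read 7.50, 7.56, 7.33 and 7.50 untreated, 7.14, 7.15, 7.15, 7.15 and 7.10 at 8 h and 7.45, 7.59, 7.30, 7.42 and 7.46 at 24 h. All 8 h arrays lay below all others. The difference was -0.33 ± 0.06 at 8 h (adjusted p = 0.00119) and -0.03 ± 0.06 at 24 h (adjusted p = 0.763), and the rise from 8 h to 24 h was 0.30 ± 0.06 (adjusted p = 0.00107).

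The ATG8 family is joined to lipid on the autophagosome membrane. MAP1LC3B, GABARAPL1 and GABARAPL2 rose at 24 h, and so did GABARAP of the wider list (0.44 ± 0.08, adjusted p = 0.000155). MAP1LC3B, the common marker of autophagosomes, read 10.07, 10.14, 10.15 and 9.95 untreated, 10.41, 10.41, 10.44, 10.24 and 10.22 at 8 h and 11.20, 11.18, 11.24, 11.20 and 11.14 at 24 h. Its groups did not overlap, and the larger step came after 8 h. MAP1LC3B rose by 0.27 ± 0.06 at 8 h (adjusted p = 0.00592), by 1.12 ± 0.06 at 24 h (adjusted p = 6.45e-10) and by 0.85 ± 0.06 between the treated times (adjusted p = 3.13e-08). Its 2 probe sets gave 0.14 and 0.41 at 8 h and 0.98 and 1.26 at 24 h. In the fit by probe set, 0.41 passed (adjusted p = 0.0013) and 0.14 did not (adjusted p = 0.472). GABARAPL1 read 4.71, 4.94, 5.24 and 4.99 untreated, 5.07, 5.37, 5.84, 5.74 and 5.70 at 8 h and 5.99, 6.21, 6.47, 6.64 and 6.70 at 24 h. Its 8 h arrays began within the untreated range, and the 24 h arrays lay above both groups. GABARAPL1 rose by 0.57 ± 0.17 at 8 h (adjusted p = 0.0224) and by 1.43 ± 0.17 at 24 h (adjusted p = 2.71e-06). Its 8 h call was lost without untreated replicate 1 or 2 or 8 h replicate 3, 4 or 5 (0.49 to 0.56, adjusted p 0.0538 to 0.0815). It held with the set as a replicate block (0.52, adjusted p = 0.000321). The probe sets of GABARAPL1 differed in size, with 0.16 and 0.99 at 8 h and 0.84 and 2.03 at 24 h. Its early call rested on the dimmer one: the difference was 0.16 with dim probe sets left out (adjusted p = 0.295) or with the brighter probe set alone (adjusted p = 0.392). Whether these probes tell it from GABARAPL3, a near-identical copy, was not tested. The same holds for MAP1LC3B and its copy MAP1LC3B2. GABARAPL2 rose by 0.54 ± 0.09 at 24 h (adjusted p = 9.95e-05) after 0.07 at 8 h.

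The conjugation machinery was uneven. ATG12, the ubiquitin-like protein that is joined to ATG5, rose by 0.41 ± 0.12 at 8 h (adjusted p = 0.02) and by 0.75 ± 0.12 at 24 h (adjusted p = 6.94e-05). Its 3 probe sets gave 0.15, 0.57 and 0.52 at 8 h and 0.35, 0.93 and 0.96 at 24 h. In the fit by probe set, 0.15 and 0.35 did not pass (adjusted p = 0.674 and 0.152). The 8 h call of ATG12 was lost without untreated replicate 3 (0.39, adjusted p = 0.0552) or 4 (0.35, adjusted p = 0.0708). Its step of 0.33 from 8 h to 24 h (adjusted p = 0.0333) was lost without 8 h replicate 1, 3 or 4 or 24 h replicate 1 or 2 (0.26 to 0.33, adjusted p 0.0607 to 0.089). With the set as a replicate block ATG12 passed at 8 h (0.48, adjusted p = 0.00016) and in that step (0.33, adjusted p = 0.000796). ATG5 and the activating enzyme ATG7 had differences of -0.01 ± 0.08 and 0.06 ± 0.10 at 24 h (adjusted p = 0.96 and 0.692). The 95% confidence interval of ATG5 ran from -0.17 to 0.15 on the log2 scale, and its 3 probe sets gave 0.05, -0.01 and -0.06.

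Among cargo and mitophagy receptors, SQSTM1, which encodes p62, rose by 0.25 ± 0.07 at 24 h (adjusted p = 0.00713). Its 2 probe sets gave 0.50 ± 0.09 and 0.00 ± 0.11 there, and the latter did not exceed the array median on any array. From 8 h to 24 h SQSTM1 was at 0.16 (adjusted p = 0.0683). With dim probe sets left out that step was 0.37 (adjusted p = 0.00128). BNIP3L, a receptor for the removal of mitochondria, read 10.36, 10.41, 10.05 and 9.34 untreated, 9.70, 9.73, 9.70, 9.42 and 9.46 at 8 h and 10.97, 11.32, 10.41, 10.25 and 10.41 at 24 h. Untreated replicate 4 was low enough to overlap with the 8 h arrays, and the 24 h arrays lay above all 8 h arrays. BNIP3L rose by 1.07 ± 0.21 from 8 h to 24 h (adjusted p = 0.000995). Against untreated cells it was at -0.44 ± 0.22 at 8 h (adjusted p = 0.212) and at 0.63 ± 0.22 at 24 h (adjusted p = 0.0319). Without untreated replicate 4 these became -0.67 (adjusted p = 0.0272) and 0.40 (adjusted p = 0.135). The 24 h call was also lost without untreated replicate 3 (0.64, adjusted p = 0.0586), 24 h replicate 1 (0.56, adjusted p = 0.0753) or 24 h replicate 2 (0.47, adjusted p = 0.0803). BNIP3L passed at 24 h with the set as a replicate block (0.71, adjusted p = 0.000928). BNIP3 read 3.34, 3.43, 3.28 and 3.40 untreated, 3.78, 3.68, 4.44, 3.69 and 3.62 at 8 h and 3.72, 3.42, 3.86, 3.48 and 3.68 at 24 h. It stayed below the array median on all arrays. Its rise of 0.48 ± 0.14 at 8 h (adjusted p = 0.0231) lost its call without untreated replicate 1 (0.47, adjusted p = 0.0548) or 3 (0.45, adjusted p = 0.0597), with the probe set of highest mean alone (0.28, adjusted p = 0.068), and within day 1 (0.34, adjusted p = 0.0688) and days 2 to 4 (0.57, adjusted p = 0.0877). BNIP3 passed at 8 h with the set as a replicate block (0.52, adjusted p = 0.00803). At 24 h BNIP3 was at 0.27 ± 0.14 (adjusted p = 0.148), and without 8 h replicate 3 that difference passed (adjusted p = 0.017).

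Within-day fits rest on 2 arrays per group on day 1, and on 2 untreated arrays and 3 arrays of each treated group on days 2 to 4. Further calls were lost there without a change of direction. Within day 1, GLA was at -0.25 at 8 h (adjusted p = 0.078), GABARAPL1 at 0.39 (adjusted p = 0.0819) and BECN1 at 0.13 (adjusted p = 0.277), and LAMP2 was at 0.15 at 24 h (adjusted p = 0.23). Within days 2 to 4, MAP1LC3B was at 0.25 at 8 h (adjusted p = 0.0713) and SQSTM1 at 0.21 at 24 h (adjusted p = 0.073). From 8 h to 24 h, days 2 to 4 gave 0.19 for TFEB (adjusted p = 0.0643), -0.17 for CTSC (adjusted p = 0.0576) and 0.24 for ATG12 (adjusted p = 0.1), and day 1 gave 0.21 for SCARB2 (adjusted p = 0.0554) and 0.06 for LAMP1 (adjusted p = 0.588). For CTSB, WIPI1 and ULK1, the differences at 24 h were 1.70, 2.31 and 1.35 within day 1 and 1.94, 1.77 and 1.83 within days 2 to 4.

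A wider list of 144 other lysosome and autophagy genes was likewise chosen with earlier results of these data known. Of these, 118 were measured. At 8 h, 19 were higher (16.1%, beside 8.69% of all genes) and 9 lower (7.63%, beside 11.0%). At 24 h, 61 were higher (51.7%, beside 19.5%) and 13 lower (11%, beside 20.9%). From 8 h to 24 h, 50 rose (42.4%, beside 14.6%) and 4 fell (3.39%, beside 13.7%). The median log2 difference of the 118 genes at 24 h was 0.21. Among 29 further autophagy factors, 17 were higher and 3 lower at 24 h. OPTN, a receptor for damaged mitochondria and bacteria, rose by 2.14 ± 0.16 (adjusted p = 1.77e-08), the mitophagy kinase PINK1 rose by 1.64 ± 0.11 (adjusted p = 2.74e-09), and ATG9A, which supplies membrane, rose by 0.74 ± 0.07 (adjusted p = 1.8e-07). Among 16 further membrane proteins, 9 were higher and 2 lower at 24 h. At 8 h 3 of these were higher and 1 was lower, among them LAPTM5 (1.0 ± 0.06, adjusted p = 6.37e-09) and LITAF (-0.63 ± 0.08, adjusted p = 1.87e-05). At 24 h LAPTM5, a lysosomal protein of blood cells, rose by 1.31 ± 0.06 (adjusted p = 5.67e-11), OSTM1 by 0.75 ± 0.19 (adjusted p = 0.00428) and HGSNAT, an enzyme that acetylates heparan sulfate, by 0.72 ± 0.12 (adjusted p = 0.000157).

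Of 27 hydrolases in the wider list, 12 were higher at 24 h (44.4%, beside 19.5% of all genes). A further 7 were lower (25.9%, beside 20.9%), a share near that of all genes. CTSG, a granule protease, was at -1.17 ± 0.21 (adjusted p = 0.000225), the folate-processing GGH was at -1.13 ± 0.09 (adjusted p = 2.38e-08), and SCPEP1, a carboxypeptidase, rose by 0.86 ± 0.15 (adjusted p = 0.000151). Of 17 genes that sort enzymes to lysosomes, 9 were higher and 1 lower. GNPTAB, which makes the mannose 6-phosphate tag, rose by 1.03 ± 0.08 (adjusted p = 1.25e-08), and IGF2R, a receptor for that tag, rose by 0.79 ± 0.09 (adjusted p = 1.98e-06). VPS39, a tethering factor, rose by 0.57 ± 0.15 (adjusted p = 0.00568). Of 14 further pump subunits, 7 were higher and none lower, led by ATP6V0E2 (0.58 ± 0.11, adjusted p = 0.000558), ATP6V1D (0.40 ± 0.10, adjusted p = 0.00297) and ATP6V1E1 (0.36 ± 0.10, adjusted p = 0.00626). Of 15 regulators, 7 were higher and none lower. FOXO1 rose by 1.32 ± 0.07 (adjusted p = 4.28e-10), FOXO3 by 1.26 ± 0.12 (adjusted p = 1.79e-07) and RRAGC, a GTPase that recruits mTORC1 to lysosomes, by 0.95 ± 0.06 (adjusted p = 1.52e-09). MTOR itself was at -0.15 (adjusted p = 0.213).

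**Figure D5:**
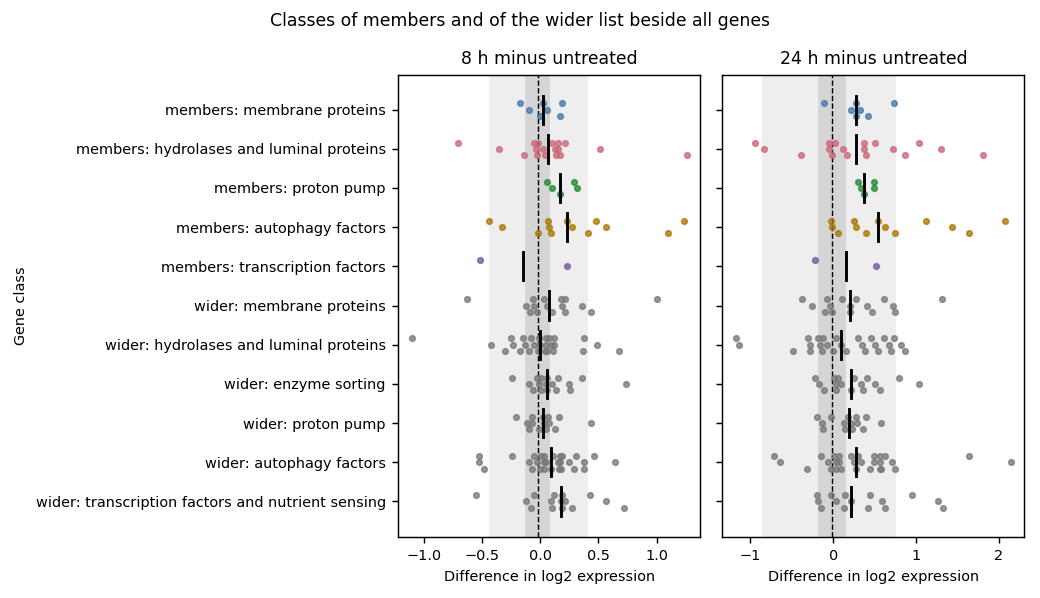
Differences in log2 expression from untreated cells at 8 h (left) and 24 h (right) for the classes of the 45 members (coloured points) and of the wider list (grey points), with black bars at class medians. Shading spans the 5th to 95th and the 25th to 75th percentiles of all 11963 genes, and the dashed line is their median of -0.02; the class medians at 24 h run from 0.10 (wider hydrolases) to 0.54 (autophagy factors).

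Markers of cell identity moved in the same samples. The mean log2 expression of the 8 precursor B-cell markers ranged from 8.77 to 9.01 over the untreated arrays, from 8.17 to 8.51 at 8 h and from 8.44 to 8.81 at 24 h. Within that list BLNK was at -2.21 and DNTT at -1.80 at 24 h, while CD79B was at 0.98 (adjusted p = 6.58e-06, 0.000216 and 3.27e-07). The part of these changes in the lysosome and autophagy results was not tested. The mean of the 9 monocyte and macrophage markers ranged from 4.11 to 4.19 untreated, from 4.06 to 4.16 at 8 h and from 4.11 to 4.27 at 24 h, below the array medians of 6.03 to 6.11. None of 6 granulocyte markers or 5 erythroid and platelet markers exceeded the array median in any group, and 1 of 8 T and NK cell markers, NKG7, did in each group.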

How the data were processed

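RNA of RS4;11 cells was hybridized to Affymetrix arrays according to the sample labels, while the study's methods name Agilent arrays of type hgu133a2. The authors ran RMA from the affy package (versions not given in the sources used here), which corrects background, normalizes between arrays and summarizes probes, and dropped 1 untreated array at quality control. The deposited values are log2 expression of 22277 probe sets. Arrays have no read depth, and the number of arrays limits the precision.

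Groups came from the labels. Of the probe sets, 19070 were annotated with exactly 1 gene, 1043 with several, and 2164 were not listed; the first were averaged per gene, giving 11963 genes. Names were those of the platform annotation. Probe sets ending in _s_at or _x_at can bind several transcripts. The 3 groups were fitted in 1 model with limma 3.58.1 (lmFit, eBayes) in R 4.3.3, without a block, with Benjamini-Hochberg adjustment over all genes tested. The calculation was tested on simulated data. The variance filter named in the methods was an alternative here and not applied, since it favours probe sets that differ and keeps 39 of the 45 genes. Residuals of arrays of the same set, as given by the labels, correlated with r from 0.30 to 0.54 over all 13 pairs. Arrays of different sets were not compared in this way. With the set fitted as a random block, limma estimated a correlation of 0.30 within sets. Beyond this estimate, whether the sets pair the samples was not tested. No pair of arrays was identical.

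The members and lists were chosen with earlier results of these data known. Every member is named. Values on each array are given for the members with the largest called differences per class (2 at 24 h, 1 at 8 h, and 1 transcription factor at each time), and for PSAP, CTSC, GLA, CTSZ, MAP1LC3B, GABARAPL1, UVRAG, BNIP3L and BNIP3, which were added after their values were seen. Of the wider list, up to 3 genes per class with the largest called difference at 24 h are named. MITF, TFEC, MTOR, GABARAP and LITAF were added after their values were seen. Promoter windows were the RefSeq sequences of GRCh38.p14, searched with Python 3. Alternatives were other filters, normalizations, blocks, days, weights, thresholds and arrays left out in turn; probe sets as features were chosen after seeing the data.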

Additional observations from a re-analysis of the deposited data

Results flagged for a closer look

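Of 135 groups of 4 or 5 arrays (45 genes in 3 groups), 6 held an array whose gap to its nearest neighbour was a large part of the group's range; chance gives about 1 in 20. LAMP1 was lowest on the 8 h array of replicate 4, at 8.83 with the next at 8.96. GUSB was highest on the 24 h array of replicate 2, at 10.27 with the next at 10.15. NPC2 was highest on the 24 h array of replicate 3, at 11.55 with the next at 11.35. UVRAG was lowest on the 8 h array of replicate 5, at 7.10 with the next at 7.14. BNIP3 was highest on the 8 h array of replicate 3, at 4.44 with the next at 3.78. TFE3 was lowest on the 8 h array of replicate 1, at 7.07 with the next at 7.26.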

How the results depend on the processing

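The counts of members higher or lower stayed within 1.5 times of those reported under 30 other settings of the processing and with probe sets as features, with 1 exception: at an adjusted p below 0.01, 5 members in place of 12 were higher at 8 h. With the set as a replicate block, 14 members were higher and 4 lower at 8 h, 30 and 4 at 24 h, and 29 and 4 between 8 h and 24 h; the block lost no call and gained 12. Calls over all genes rose with it too, to 11.9% higher and 15.2% lower at 8 h, 22.2% and 24% at 24 h, and 19% and 17.4% between. Leaving out each array in turn gave 9 to 12 higher and 4 to 5 lower at 8 h, 25 to 28 and 3 to 4 at 24 h, and 21 to 23 and 3 between 8 h and 24 h. Of the calls, 7 of 16 at 8 h, 25 of 31 at 24 h and 19 of 26 between 8 h and 24 h held in all 30 settings. ASAH1 reversed at 24 h under the variance filter of the methods, to -0.35 (adjusted p = 0.00359), since the filter kept only the probe set that fell. Shifting all arrays to the same median moved the median of all genes at 24 h from -0.02 to -0.06. The smallest difference of a member that passed was 0.21 on the log2 scale (NEU1 at 8 h), so smaller changes may be missed with 4 and 5 arrays per group.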
